A study of Homo sapiens with 12 samples.

Results

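The genes described here encode the pore-forming and auxiliary subunits of potassium channels, voltage-gated sodium channels and voltage-gated calcium channels. They were taken by symbol from the deposited expression table: every symbol made of KCN, further letters and a closing number (which leaves out antisense and other derived symbols), every SCN gene numbered with the letter A or B, and the CACNA1, CACNA2D, CACNB and CACNG genes. This gave 135 of the 56508 symbols, namely 95 potassium, 14 sodium and 26 calcium channel genes. Of these, 51 reached a level of at least 1 in at least 3 of the 12 libraries and were tested, together with all other genes that did so, 15456 in all. The tested members were 38 potassium, 5 sodium and 8 calcium channel genes; 84 members stayed below the limit, and 6 of these (CACNG6, KCNA10, KCNJ18, KCNK18, KCNU1 and SCN10A) were listed at 0 in every library. Levels are in the authors' rescaled TPM, a read abundance per transcript length in which levels of different genes can be set side by side.

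The RNA came from H82 and H211, which are established lines of human small cell lung cancer, with the genotype given as WT. Each line was treated with ORY-1001 at 1 µM, an inhibitor of the histone demethylase LSD1, or with vehicle, which the sample labels give as PBS. Each of the 4 groups (H82 control, H82 ORY-1001, H211 control, H211 ORY-1001) held 3 libraries. Treatment lasted 7 days by the sample labels and 10 days by the treatment protocol, and these were not reconciled. No label states that the 3 libraries of a group were grown as separate cultures. The p-values therefore measure only the spread between these libraries, which may be technical. Each line is a single background, so a difference between H82 and H211 is a difference between these lines and not between classes of tumour. The cultures were measured in bulk, where fewer cells of a kind and less RNA per cell cannot be told apart.

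Voltage-gated potassium channels open on depolarisation and bring the membrane back toward rest. Inward rectifiers and 2-pore-domain channels hold the resting potential, and a further group opens with intracellular calcium or sodium. Voltage-gated sodium channels carry the upstroke of the action potential, and voltage-gated calcium channels turn depolarisation into calcium entry and secretion. Small cell lung cancer cells of the neuroendocrine kind are known to be electrically excitable.

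Expression of the lines' defining markers set the frame for these genes. Neuroendocrine markers (NEUROD1, INSM1, CHGA, SYP and NCAM1, all tested) summed to 485 to 496 in H82 controls and 68.7 to 71.7 in H211 controls. NCAM1 was nearer in level between the lines, at 65.97 ± 1.56 in H82 and 56.45 ± 2.19 in H211 controls. It made up most of the H211 sum. Markers of tuft-cell-like tumours (POU2F3, ASCL2, TRPM5, BMX, SOX9 and CHAT, all tested) summed to 18.3 to 21.4 in H82 controls and 749 to 760 in H211 controls. CHAT ran against the rest of that list, at 14.9 ± 0.730 in H82 and 6.41 ± 0.414 in H211 controls, and made up most of the H82 sum. With ORY-1001 the neuroendocrine sum in H82 was 349 to 355, and 4 of its 5 genes fell. In H211 the same sum was 83.9 to 90.1 with ORY-1001, and 1 of the 5 genes rose. NCAM1 was at 70.5 ± 2.85 there. The tuft sum in H211 was 594 to 623 with ORY-1001, and 3 of its 6 genes fell. KDM1A, which encodes LSD1 itself, lay between 181 and 195 in all 12 libraries. Summed blood cell transcripts (11 genes, 9 of them tested) ran from 29.8 to 141 in H82 ORY-1001 libraries. In H211 controls they ran from 43.4 to 135, and in the other 2 groups from 31.3 to 55.7. Similar sums came from different genes. HBG2 was at 22.4 to 28.15 in H82 controls and at 0, 0.120 and 53.0 in the treated H82 libraries. MPO was at most 0.0849 in H82 controls and at 8.71, 8.55 and 24.3 in the treated H82 libraries. HBB was listed at 0 in H82 controls and in both ORY-1001 groups, and of the 9 tested blood genes MPO passed the test by limma, higher with ORY-1001 in H82 (adjusted p = 0.0141) and different in effect between lines (adjusted p = 0.0390), and none passed in H211. Fibroblast genes were at 1.57 to 6.03 in sum in the controls of both lines, while H211 with ORY-1001 reached 64.5 to 70.9. This came from DCN, which was 15.6-fold higher than in the controls. Endothelial genes summed to at most 1.33. Whether these transcripts have a part in the channel results was not tested, other than by leaving out libraries as given below.

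Potassium channel genes made up most of the channel RNA in both lines, and H211 carried more of it. The 135 members summed to 184 ± 7.23 in H82 controls and 397 ± 5.62 in H211 controls (mean ± SD, n = 3, rescaled TPM). In H82 controls the potassium genes held 68.9% ± 1.76 of that sum, the calcium genes 27.8% ± 1.98 and the sodium genes 3.35% ± 0.188. In H211 controls the shares were 92.6% ± 0.378, 6.30% ± 0.441 and 1.15% ± 0.116. A single auxiliary gene, KCNIP4, held 34.4% ± 0.269 of the H211 sum and 0.790% ± 0.0605 of the H82 sum. Without KCNIP4 the members summed to 182 ± 7.06 in H82 controls and 260.2 ± 4.73 in H211 controls. The calcium family went the other way, with 51.1 ± 5.57 in H82 controls and 25.0 ± 1.495 in H211 controls, and the sodium family was low in both, with 6.14 ± 0.0994 and 4.57 ± 0.462. These sums are given as levels, without a test.

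**Figure D1:**
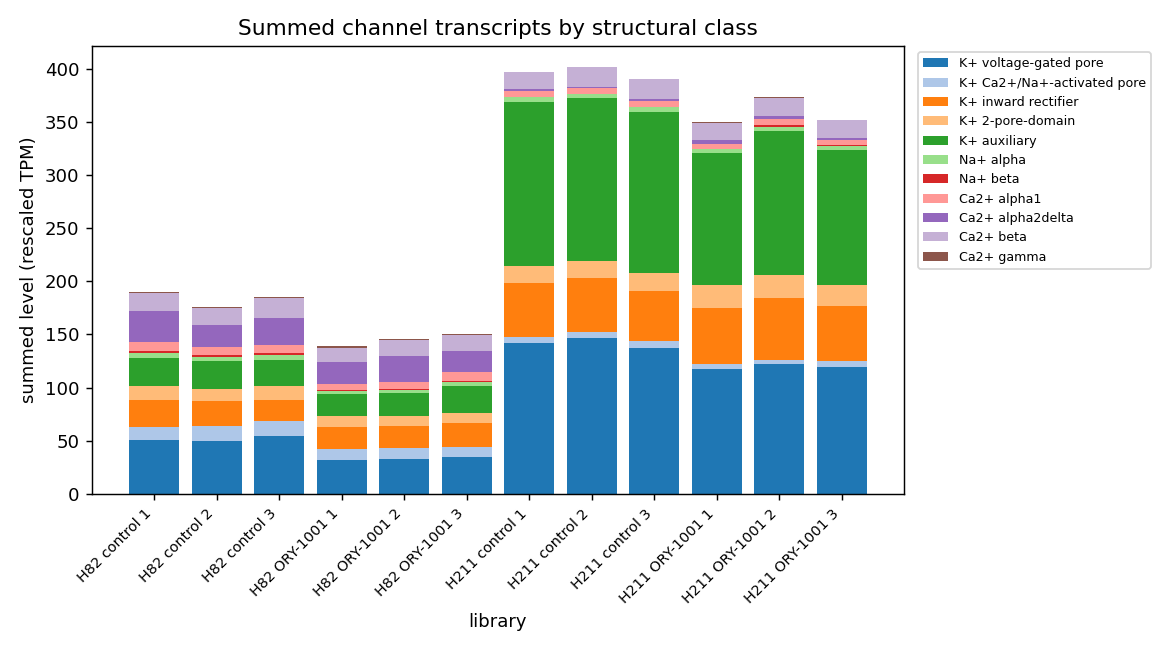
Summed level of the 135 channel genes (rescaled TPM, y axis) in each of the 12 libraries (x axis), stacked by structural class. Bars of H211 libraries reach 350 to 402 and those of H82 libraries 139 to 190, and the potassium classes fill most of each.

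With ORY-1001 the summed level was 145 ± 5.59 in H82 and 359 ± 12.97 in H211, and in both lines every treated library lay below every control library. The voltage-gated potassium pore genes, 40 members of which 19 were tested, gave the largest part of this in H82. Their H82 sum was 50.7, 49.8 and 54.4 in the controls and 31.2, 33.1 and 34.8 with the drug. In H211 the corresponding values were 142, 147 and 137 in controls and 117, 122 and 119.5 with the drug, and the auxiliary genes went from 153 ± 1.08 to 129 ± 5.84. The sum of the 2-pore-domain genes went from 12.1 ± 1.09 to 9.79 ± 0.0569 in H82. In H211 it went from 16.8 ± 0.365 to 21.0 ± 0.692. There KCNK7 went from 2.90 ± 0.763 to 8.10 ± 1.09, while KCNK2 and KCNK5 had slightly lower means with the drug. In H82 KCNK2 went from 3.34 ± 0.373 to 1.15 ± 0.0148, and KCNK5 rose from 2.10 ± 0.164 to 3.635 ± 0.232. Inward rectifier genes summed to 23.0 ± 2.59 and 21.3 ± 0.779 in H82, where libraries overlapped, and to 49.2 ± 2.43 and 54.6 ± 3.35 in H211, where they did not. KCNJ11, which was not called, made up most of the H211 sums, at 39.6 ± 2.02 and 44.95 ± 2.95. The calcium gene sum overlapped between treated and control libraries in both lines, and the sodium gene sum did so in H211. In H82 the sodium sum was 6.05, 6.25 and 6.12 in controls and 3.84, 3.91 and 4.58 with the drug, without overlap.

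KCNH2, which encodes the hERG channel of the rapid delayed rectifier current, was the voltage-gated potassium pore gene with the highest level. It lies at chr7:150944961-150978315 on the minus strand (GRCh38, GENCODE 29, as for all gene positions here). In H82 it read 2.6, 2.8 and 2.6 in the vehicle libraries and 2.48, 2.29 and 3.0 in the treated ones. In H211 it read 27.3, 25.8 and 24.4 in the vehicle libraries and 21.1, 22.7 and 21.8 in the treated ones. All H211 libraries were far above all H82 libraries, and within H211 the treated libraries lay below the controls without overlap. In the controls KCNH2 was 9.71-fold higher in H211 (log2 difference of TPM + 1, 2.87 ± 0.0798 SE, adjusted p = 1.98e-11, limma with Benjamini-Hochberg adjustment over all genes tested, as for every adjusted p here). The drug difference did not pass the test in H82 (-0.03, adjusted p = 0.784) or in H211 (-0.23, adjusted p = 0.0667). The H211 difference passed without H82 ORY-1001 replicate 3 (adjusted p = 0.0353), through the spread that all groups share in the fit. It also passed with a pseudocount of 5 (0.0181), totals without mitochondrial genes (0.0406), library weights (0.0374) and a fit of the H211 libraries alone (0.0444), and without the 4 libraries named below it had an adjusted p of 0.537. The difference between the lines' drug effects was -0.20 (adjusted p = 0.209).

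Between the untreated lines nearly every tested channel gene differed in level, often in opposite directions within a subfamily. Control means of 1 or more were reached by 16 members in both lines, by 17 in H82 only and by 15 in H211 only. Of 51 tested members, 48 (94.1%) were called at an adjusted p under 0.05, 26 higher in H211 and 22 higher in H82. Over all genes tested 80.5% were called, 39.7% higher in H211 and 40.8% higher in H82. The members' count cannot be read against that share directly. A level of at least 1 was reached in H82 libraries alone by 17 members and in H211 libraries alone by 14, and a gene that enters through the controls of 1 line is likely to differ between them. KCNMA1 reached it in the treated H82 libraries alone and was not called between the controls (adjusted p = 0.445). Among the 20 members that reached this level in both lines, 12 were higher in H211, 6 were higher in H82 and 2 were not called. By family, potassium genes were called 21 times toward H211 and 15 times toward H82, sodium genes 2 and 3 times, and calcium genes 3 and 4 times. The median log2 difference was 0.81 over the potassium, -0.64 over the sodium and -0.85 over the calcium genes, beside -0.02 over all genes tested.

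**Figure D2:**
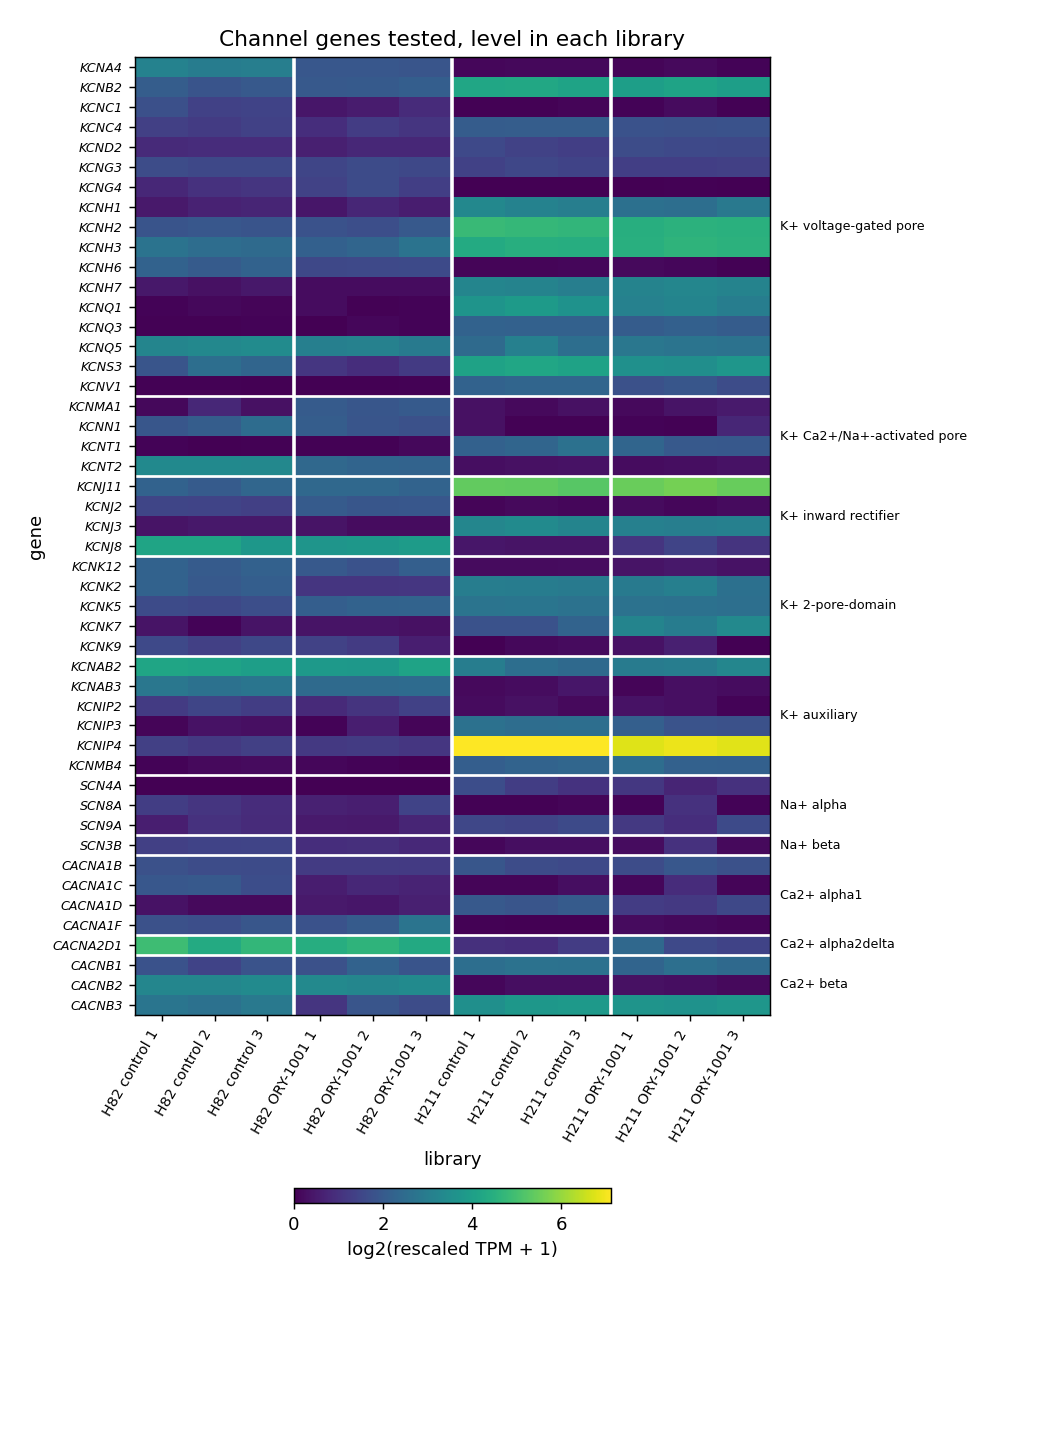
Levels of 48 of the tested channel genes (rows, by class) in the 12 libraries (columns), coloured by log2 of rescaled TPM + 1. Libraries look alike within a line and differ between lines, with KCNIP4 at 137 in H211 controls and 1.45 in H82 controls.

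On the log2(TPM + 1) scale the largest contrast was in an auxiliary subunit gene. KCNIP4, a calcium-binding protein that associates with Kv4 channels (chr4:20728616-21948799, minus strand), read 1.56, 1.26 and 1.53 in untreated H82 and 137, 137 and 135.5 in untreated H211. It was 93.9-fold higher in H211 (5.81 ± 0.0633 SE, adjusted p = 4.35e-14). KCND2, the tested Kv4 pore gene, was low in both lines, at 0.850 ± 0.0430 in H82 controls and 1.70 ± 0.243 in H211 controls. KCNIP3 was 27.3-fold higher in H211, while KCNIP2 was 8.44-fold higher in H82. The cytoplasmic beta subunits KCNAB2 and KCNAB3 were 2.94-fold and 27.0-fold higher in H82.

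Among voltage-gated potassium pore genes the KCNQ and KCNH subfamilies marked H211. KCNQ1, which carries the slow delayed rectifier with KCNE partners (chr11:2444684-2849110), read 0.046, 0.107 and 0.0749 in untreated H82 and 11.9, 13.7 and 11.2 in untreated H211. It was far below a level of 1 in every H82 control and far above it in every H211 control. The log2 difference was 3.62 ± 0.0988 for KCNQ1 (adjusted p = 1.74e-11). KCNQ5 was 1.61-fold higher in H82. In the KCNH subfamily KCNH1, KCNH2, KCNH3 and KCNH7 were 14.6-, 9.71-, 4.09- and 23.5-fold higher in H211. KCNH6 was 44.8-fold higher in H82.

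Some voltage-gated potassium pore genes were higher in H82. KCNA4, a Kv1 subunit with fast inactivation (chr11:30009741-30017023), read 7.96, 6.92 and 7.25 in untreated H82 and 0.0915, 0.101 and 0.115 in untreated H211. All H82 controls were above all H211 controls for KCNA4. The log2 difference was -2.92 ± 0.0842 (adjusted p = 2.59e-11). KCNB2, a delayed rectifier pore gene, was 5.87-fold higher in H211. KCNC1 was 42.5-fold higher in H82 and its paralogue KCNC4 2.18-fold higher in H211.

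Inward rectifiers split within their family. KCNJ11, the pore of ATP-sensitive potassium channels (chr11:17385859-17389331), read 3.69, 3.10 and 4.11 in untreated H82 and 41.2, 40.3 and 37.3 in untreated H211. KCNJ8, the other such pore (chr12:21764955-21775581), read 16.8, 16.8 and 12.6 in untreated H82 and 0.351, 0.295 and 0.302 in untreated H211. KCNJ3, a G-protein-gated rectifier subunit (chr2:154698299-154858352), read 0.306, 0.385 and 0.363 in untreated H82 and 8.52, 9.58 and 8.23 in untreated H211. Thus KCNJ11 and KCNJ3 were higher in H211, and KCNJ8 was higher in H82, with no overlap of libraries for any of them. Their log2 differences were 3.14 ± 0.0855, -3.63 ± 0.132 and 2.85 ± 0.0855 (adjusted p = 1.74e-11, 1.91e-10 and 3.60e-11). Of the sodium-activated channels, KCNT2 (chr1:196225779-196609225) read 9.43, 9.38 and 8.91 in untreated H82 and 0.193, 0.244 and 0.262 in untreated H211, a difference of -3.05 ± 0.0811 (adjusted p = 1.42e-11). KCNT1 was 155.8-fold higher in H211, from a level of 0.0277 ± 0.0158 in H82.

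**Figure D3:**
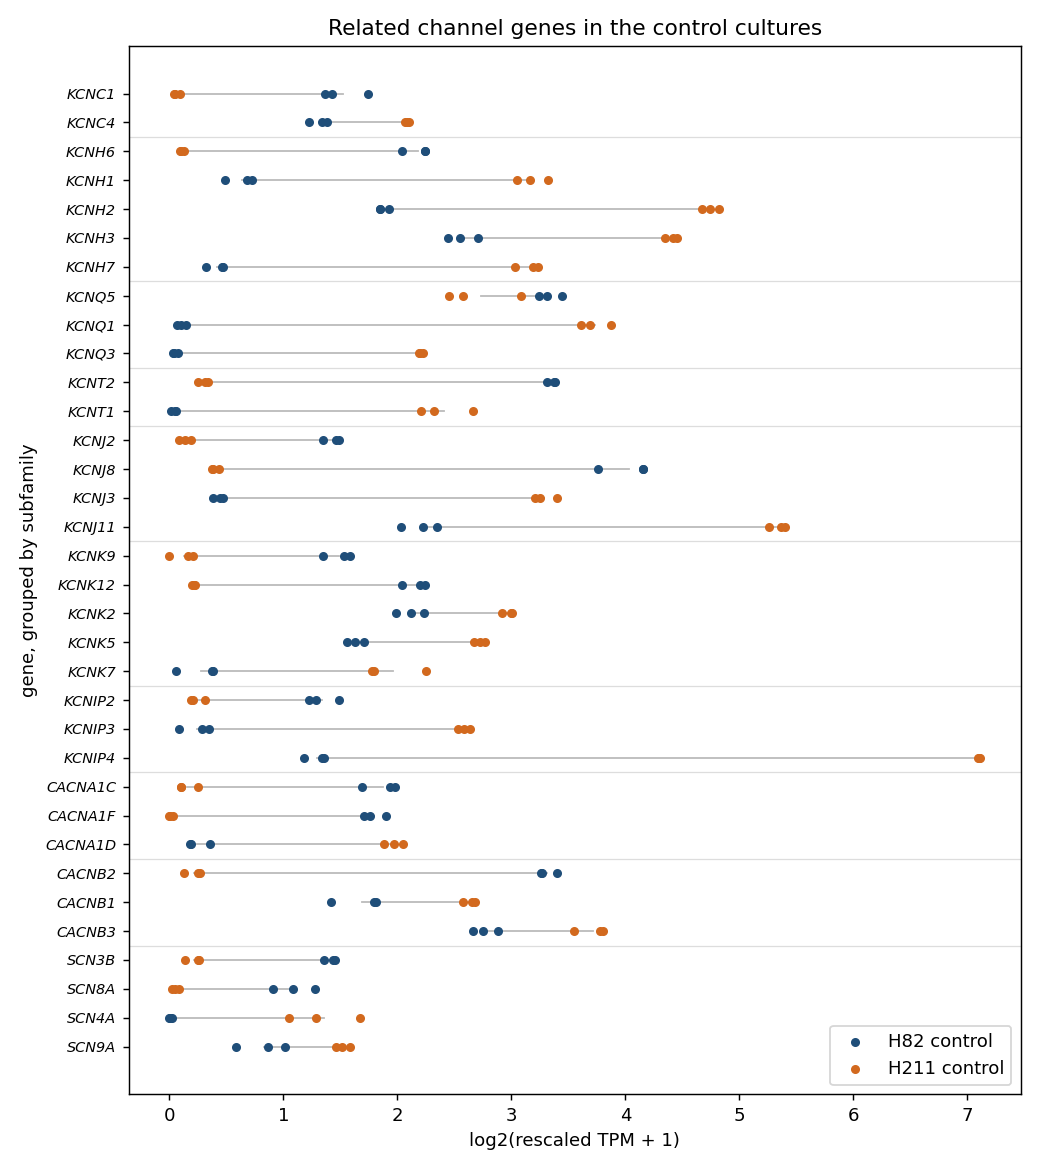
Level of related channel genes in the 3 control libraries of each line, as log2 of rescaled TPM + 1 (x axis), with genes grouped by subfamily (y axis), points for libraries and a line joining the group means of a gene. Only subfamilies with genes called toward each line were chosen for display. By that choice, in each subfamily shown at least 1 gene is higher in H82 and at least 1 in H211, such as KCNC1 and KCNC4.

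Of 21 subfamilies with a tested member (all SCN genes counted as 1), 13 had at least 2, and 11 of these held genes called toward each line. With 80.5% of all genes called, about evenly each way, and 31 of the 51 members at the level limit in a single line, this count is a description and was not set against other gene groups. The exceptions were KCNAB, with both genes higher in H82, and KCNG, with KCNG4 higher in H82 and KCNG3 not called. The 2-pore-domain genes KCNK2, KCNK5 and KCNK7 were 2.05-, 2.67- and 13.5-fold higher in H211, and KCNK9 and KCNK12 were 19.7- and 22.01-fold higher in H82. These folds are ratios of means. Where the lower line is below about 0.1 they rest on a few reads, or on traces of reads from other libraries: among genes at 100 or more in H211 controls, the lowest share above 0 read in H82 controls was 0.483%. The KCNIP4 level in H82 was 1.06% of that in H211.

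Calcium channel genes summed higher in H82 than in H211, and 2 auxiliary genes carried most of that. CACNA2D1, an alpha2delta subunit that raises surface expression of the channel and is a target of gabapentin (chr7:81946444-82443798), read 28.7, 19.2 and 25.1 in untreated H82 and 0.977, 0.898 and 1.38 in untreated H211. CACNB2, a beta subunit (chr10:18140677-18543557), read 8.58, 8.63 and 9.53 in untreated H82 and 0.0952, 0.191 and 0.208 in untreated H211. Both were above every H211 library in every H82 library, at log2 differences of -3.59 ± 0.232 (adjusted p = 3.21e-08) and -3.09 ± 0.0869 (adjusted p = 2.16e-11). The beta genes CACNB1 and CACNB3 were 2.36- and 2.08-fold higher in H211. Among pore genes, CACNA1C (L-type Cav1.2) was 23.5-fold higher in H82 and CACNA1D (L-type Cav1.3) 15.9-fold higher in H211. The N-type pore gene CACNA1B was alike in level, at 2.22 ± 0.149 in H82 and 2.28 ± 0.409 in H211 controls (0.02 ± 0.106, adjusted p = 0.848). CACNA1F, best known from the retina, had the highest single group mean of the tested pore genes, at 2.40, 2.27 and 2.73 in H82 controls and 2.48, 3.11 and 5.71 with the drug, and at most 0.153 in any H211 library. No CACNG gene was tested: CACNG5 came closest, at 0.508 to 1.53 over the H82 libraries, and its third-highest level of 0.973 lay just under the limit.

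Voltage-gated sodium channel genes were scarce in both lines. SCN9A, the Nav1.7 pore of sensory and neuroendocrine cells, had the highest alpha-subunit level, at 0.499, 1.02 and 0.818 in H82 controls and 1.85, 1.76 and 2.01 in H211 controls. SCN4A was likewise higher in H211, at 1.57 ± 0.565 against 0.00793 ± 0.00857, while SCN8A and the beta subunit SCN3B were higher in H82. SCN3B read 1.55, 1.71 and 1.74 in untreated H82 and 0.0973, 0.192 and 0.198 in untreated H211. Members that passed the level limit narrowly were SCN8A and SCN4A, with third-highest levels of 1.12 and 1.21, and those just below it after CACNG5 were KCNMB3 at 0.811 and KCNJ15 at 0.747. In H211 ORY-1001 replicate 2, SCN3B, SCN8A and CACNA1C stood at 1.00, 1.00 and 0.885, and the other 2 libraries of that group at no more than 0.173 for any of them; this was chosen after its values were seen.

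In H82, 12 tested channel genes fell with ORY-1001 and 4 rose. Of 51 tested members, 16 (31.4%) were called, against 43% of all genes tested. Over all genes tested 19.1% rose and 23.9% fell, so the members' falls lay near the overall share and their rises below it. The median log2 difference was -0.15 over the members and -0.02 over all genes. Potassium genes were called in 12 of 38 cases (4 rose, 8 fell), calcium genes in 3 of 8 (all fell) and sodium genes in 1 of 5 (fell). Treated and control libraries did not overlap for 21 of the 51 members (41.2%), 5 of them not called, against 52.3% of all genes tested. A level of at least 1 was reached in H211 libraries alone by 14 members, and a gene near 0 in H82 is less likely to be called there. The members' shares therefore cannot be read directly against those over all genes.

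Of the 19 tested voltage-gated potassium pore genes, 5 fell and 1 rose. KCNA4 read 7.96, 6.92 and 7.25 in the vehicle libraries and 2.84, 2.78 and 2.64 in the treated ones (-1.16 ± 0.0842, adjusted p = 1.51e-06). KCNS3, a silent subunit that modifies other voltage-gated channels (chr2:17877847-18361616), read 2.69, 4.98 and 4.003 in the vehicle libraries and 1.19, 0.898 and 1.30 in the treated ones (-1.18 ± 0.151, adjusted p = 8.99e-05). For both genes every treated library was below every control. KCNC1, a Kv3 pore of fast-spiking neurons, went from 1.87 ± 0.408 to 0.553 ± 0.250 (adjusted p = 0.000297). KCNH6, a relative of KCNH2, went from 3.53 ± 0.3603 to 1.96 ± 0.0658 (adjusted p = 0.000265). KCNG4, another silent subunit, was the exception in this class and rose from 0.968 ± 0.226 to 1.74 ± 0.293 (adjusted p = 0.00487).

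Potassium channels opened by other signals moved both ways. KCNT2 read 9.43, 9.38 and 8.91 in the vehicle libraries and 4.25, 3.89 and 3.83 in the treated ones (-1.04 ± 0.0811, adjusted p = 2.52e-06). KCNMA1, the large-conductance calcium-activated BK pore (chr10:76869601-77638369), read 0.103, 0.720 and 0.240 in the vehicle libraries and 3.08, 2.72 and 3.00 in the treated ones (1.56 ± 0.156, adjusted p = 1.45e-05). KCNMA1 had the largest rise of any member, 8.29-fold in the means, and all controls were below 1 and all treated libraries above 2. KCNK2, the TREK-1 leak channel that responds to stretch and lipids, fell from 3.34 ± 0.373 to 1.15 ± 0.0148 (adjusted p = 3.17e-05). KCNK5, the TASK-2 leak channel (chr6:39188973-39229450), read 2.10, 1.94 and 2.27 in the vehicle libraries and 3.37, 3.72 and 3.81 in the treated ones (0.58 ± 0.0762, adjusted p = 0.000110). KCNJ2, the classical inward rectifier Kir2.1 (chr17:70168673-70180048), read 1.81, 1.76 and 1.54 in the vehicle libraries and 3.13, 2.75 and 2.84 in the treated ones (0.53 ± 0.0883, adjusted p = 0.000547). Both of these rose in all 3 treated libraries.

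The 3 calcium channel genes called in H82 were 2 pore genes and a beta subunit, and all fell. CACNA1C (chr12:1970786-2697950) read 2.83, 2.94 and 2.23 in the vehicle libraries and 0.481, 0.729 and 0.647 in the treated ones (-1.18 ± 0.194, adjusted p = 0.000520). CACNB3 (chr12:48813794-48828941) read 5.73, 5.35 and 6.39 in the vehicle libraries and 1.14, 2.64 and 2.17 in the treated ones (-1.22 ± 0.162, adjusted p = 0.000114). Treated libraries were below controls in each case, with CACNB3 lowest in replicate 1. CACNA1B fell from 2.22 ± 0.149 to 1.34 ± 0.0226 (adjusted p = 0.00480). CACNA2D1 and CACNB2, the most abundant calcium channel genes of H82, were at 24.3 ± 4.79 and 21.2 ± 2.48, and at 8.92 ± 0.532 and 9.13 ± 0.549, and were not called.

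The call for 2 of the 16 rested on single libraries. SCN3B went from 1.67 ± 0.0989 to 0.877 ± 0.0836 (adjusted p = 0.0420), and KCNAB3 from 5.71 ± 0.357 to 4.51 ± 0.0522 (adjusted p = 0.0371). The SCN3B call was lost without any single H82 library or H211 control library (adjusted p up to 0.106). The KCNAB3 call was lost without H82 control replicate 1 or 3 or without any H82 ORY-1001 library (up to 0.107). Each of the other 14 kept its call when any 1 library was left out. They also kept it without the 4 libraries marked for blood transcripts (H82 ORY-1001 replicate 3, H211 control replicates 1 and 2, H211 ORY-1001 replicate 3). That setting keeps H82 ORY-1001 replicates 1 and 2, with MPO at 8.71 and 8.55 and LYZ at 15.98 and 18.69. In H82 controls MPO was at most 0.0849 and LYZ at most 0.364. In H82 it therefore cannot separate these blood transcripts from the drug.

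**Figure D4:**
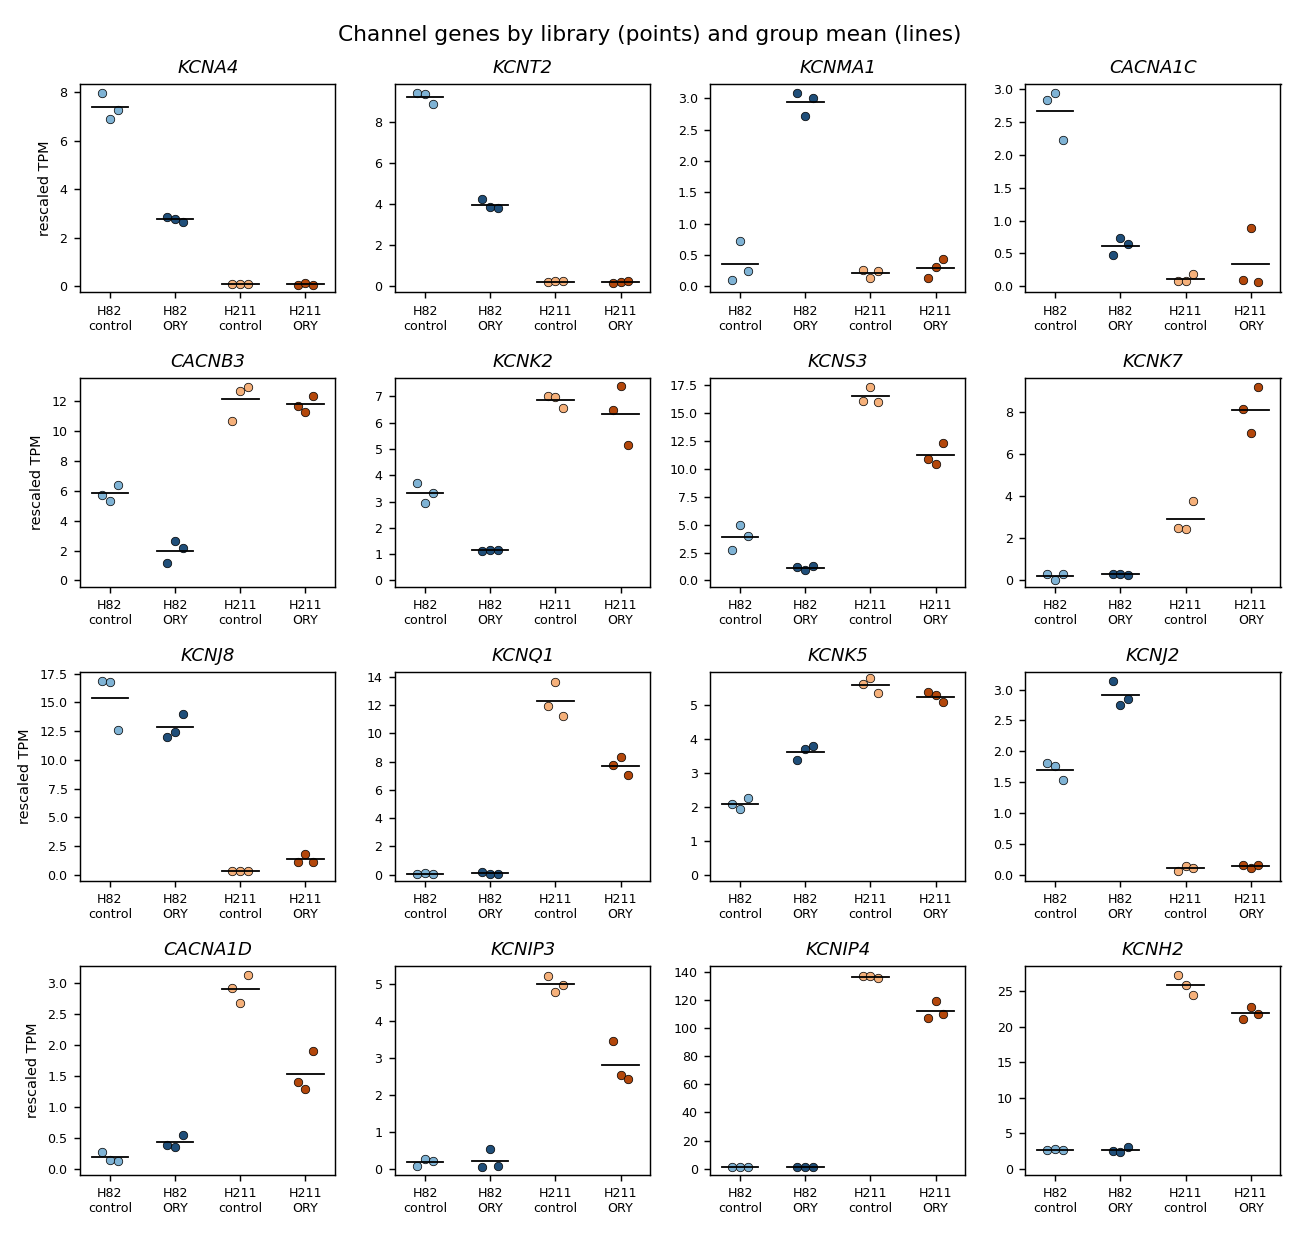
Level (rescaled TPM, linear axis) of 16 channel genes in each library by group, with points for libraries and lines for group means. KCNA4 is at 6.92 to 7.96 in H82 controls and at 2.64 to 2.84 with ORY-1001, and KCNMA1 at 0.103 to 0.720 and at 2.72 to 3.08.

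Promoter sequence was available in the RefSeq table (GRCh38.p14) for 35 of the 51 tested members, as 55 windows of 250 bases before a transcript start. REST, a repressor of neuronal genes that works with LSD1 among other partners, is known to bind channel genes at a bipartite element, and its 2 core half-sites, TTCAGCACC and GGACAG, were searched on both strands. So were 4 other short motifs, of which AAATCAC was in no member's window. CAGATG was in 9 of the members' 55 windows (16.364%), beside 12.151% of all windows and 8.534% of those of genes tested. ATGCAAAT was in 1 of the members' windows and TATAAA in 2. REST transcript itself stood at 1.78 to 2.33 in H82 controls and 1.66 to 2.47 with the drug (adjusted p = 0.898), and at 3.94 to 4.87 and 3.43 to 4.24 in H211 (adjusted p = 0.309). TTCAGCACC was found in 1 of the members' 55 windows (1.818%), that of KCNH6. It was in 0.288% of all promoter windows and in 0.188% of those of genes tested. There it spans 233 to 225 bases before the start, and GGACAG follows on the same strand at 217 to 212, with 7 bases between. The half-sites were searched separately, and this spacing was not compared with that of a REST element. GGACAG was in 12 of the members' 55 windows (21.818%), beside 17.175% of all windows. These 12 belong to 9 members, of which CACNB3, KCNH6, KCNS3 and KCNT2 fell in H82. These are matches of letters only, picked after the values were seen, and no test was made of them.

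The windows of KCNH6, KCNS3 and CACNB3 are shown because these genes fell in H82 and hold a half-site. That of KCNH2 is shown because the gene holds GGACAG and was not called. They are read 5′ to 3′ on the strand of the gene, without bases inside annotated exons. Capitals mark TTCAGCACC and GGACAG, or CTGTCC, which is GGACAG on the other strand. They lie at chr17:63523108-63523333 (plus strand, KCNH6), chr2:17878417-17878666 (plus, KCNS3), chr12:48814230-48814431 (plus, CACNB3) and chr7:150978322-150978571 (minus, KCNH2).
KCNH6: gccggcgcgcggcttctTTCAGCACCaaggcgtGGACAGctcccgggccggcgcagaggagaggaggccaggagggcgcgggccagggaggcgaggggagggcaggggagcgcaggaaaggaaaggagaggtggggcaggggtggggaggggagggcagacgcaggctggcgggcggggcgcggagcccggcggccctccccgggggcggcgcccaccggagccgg
KCNS3: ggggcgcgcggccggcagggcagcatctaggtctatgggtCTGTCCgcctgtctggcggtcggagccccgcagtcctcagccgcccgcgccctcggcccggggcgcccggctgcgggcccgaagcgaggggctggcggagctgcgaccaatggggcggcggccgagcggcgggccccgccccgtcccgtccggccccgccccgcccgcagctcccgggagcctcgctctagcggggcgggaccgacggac
CACNB3: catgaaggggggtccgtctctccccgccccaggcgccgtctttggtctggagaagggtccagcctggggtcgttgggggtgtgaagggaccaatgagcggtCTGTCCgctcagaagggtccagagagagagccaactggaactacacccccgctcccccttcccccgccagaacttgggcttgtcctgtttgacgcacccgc
KCNH2: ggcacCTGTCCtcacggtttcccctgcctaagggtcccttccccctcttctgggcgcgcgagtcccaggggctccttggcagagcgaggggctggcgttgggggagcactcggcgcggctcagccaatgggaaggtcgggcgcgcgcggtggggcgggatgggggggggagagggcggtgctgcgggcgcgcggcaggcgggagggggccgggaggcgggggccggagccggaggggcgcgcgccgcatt

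KCNH6 thus has both half-sites near the far end of its window, and the other 3 windows hold a single GGACAG on the opposite strand. A second GGACAG of KCNH6, at 8 to 3 bases before the start, lies in the part not shown. Of the other members with GGACAG, KCNG4 rose in H82, KCNIP4 fell in H211, and KCNAB2 and KCNT1 were not called in either line.

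In H211, ORY-1001 changed fewer channel genes, and other ones. Of 51 tested members, 12 (23.5%) were called, against 18.6% of all genes tested; 4 rose and 8 fell, where 8.95% of all genes rose and 9.61% fell. The median log2 difference was -0.0037 over the members and -0.0021 over all genes. Potassium genes were called in 9 of 38 cases (2 rose, 7 fell) and calcium genes in 2 of 8 (1 rose, 1 fell). Treated and control libraries did not overlap for 23 of the 51 members (45.1%), 11 of them not called, against 35.4% of all genes tested. Since 17 members reached a level of at least 1 in H82 libraries alone, these shares too cannot be read directly against those over all genes. The count of calls depended on which libraries were kept. Without the 4 libraries named above, which leaves a single H211 control that is assumed to vary like the other groups, 2 members were called. They were CACNA1D (lower, adjusted p = 0.0300) and KCNAB2 (higher, adjusted p = 0.0424), the second of which is not among the 12.

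Of the 8 falls, 5 were in voltage-gated potassium pore genes. These were 26.3% of the 19 tested genes of that class, beside 8 falls among all 51 tested members, while 9.61% of all genes tested fell. Only a gene that H211 expresses can be called lower there, and 7 of the 12 called members were under 1 in both H82 groups. KCNQ1 read 11.9, 13.7 and 11.2 in the vehicle libraries and 7.74, 8.29 and 7.08 in the treated ones (-0.61 ± 0.0988, adjusted p = 0.00156). KCNQ3, of the same subfamily, was at 3.61 ± 0.0478 and 3.28 ± 0.186 and was not called. KCNV1, a silent subunit that modifies other voltage-gated channels, read 3.70, 3.97 and 3.96 in the vehicle libraries and 2.38, 2.71 and 2.15 in the treated ones (-0.52 ± 0.0884, adjusted p = 0.00211). KCNS3 read 16.1, 17.4 and 16.04 in the vehicle libraries and 10.9, 10.4 and 12.3 in the treated ones (-0.52 ± 0.151, adjusted p = 0.0336). Thus these 2 silent subunit genes were lower in every treated library. So was KCNG3, another silent subunit gene, at 1.71 ± 0.145 and 1.51 ± 0.0230, but it was not called (adjusted p = 0.418). KCNH1, the EAG1 channel, went from 8.07 ± 0.853 to 5.48 ± 0.786 (-0.49, adjusted p = 0.0207). The KCNS3 call failed when any H211 control, or replicate 1 or 2 of H211 ORY-1001, was left out (up to 0.102). The KCNH1 call failed when replicate 1 or 2 of either H211 group was left out (up to 0.0821).

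Of 3 tested genes for Kv channel-interacting proteins, KCNIP3 and KCNIP4 fell and KCNIP2 was not called (-0.0059, adjusted p = 0.990). KCNIP3 (chr2:95297304-95386083), also known as the calcium-dependent repressor DREAM, read 5.24, 4.80 and 4.99 in the vehicle libraries and 3.45, 2.55 and 2.42 in the treated ones (-0.67 ± 0.156, adjusted p = 0.0123). KCNIP4 read 137, 137 and 135.5 in the vehicle libraries and 107, 119 and 110.1 in the treated ones (-0.28 ± 0.0633, adjusted p = 0.0102). The KCNIP4 fall was small in proportion, 1.22-fold, and in rescaled TPM took the mean from 136.5 to 112. CACNA1D (chr3:53328963-53813733) read 2.92, 2.69 and 3.13 in the vehicle libraries and 1.41, 1.28 and 1.90 in the treated ones (-0.63 ± 0.114, adjusted p = 0.00291). Of its annotated exon bases 6.8% overlap CHDH on the opposite strand, which was at 10.9 and 7.02 in the same groups. The sources used here do not say whether counting used the strand, so reads of these 2 genes may not be told apart. The same holds for KCNH1, with 36.9% of its exon bases under AC096636.1 on the opposite strand (1.46 in H211 controls) and 16.1% shared with AL590132.1 on its own strand (0.689). It holds to a lesser extent for KCNV1 (7.9%, AC027451.1, 1.48 in H211 controls) and KCNH7 (3.8%, GCA, 3.79 in H82 and 48.2 in H211 controls).

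Of the 4 genes that rose in H211, CACNA2D1 and KCNJ8 were near or below a level of 1 there without the drug. KCNK7, a 2-pore-domain gene not known to carry current by itself (chr11:65592855-65595996), read 2.48, 2.43 and 3.78 in the vehicle libraries and 8.15, 6.99 and 9.17 in the treated ones (1.23 ± 0.148, adjusted p = 0.000191). CACNA2D1 read 0.977, 0.898 and 1.38 in the vehicle libraries and 4.31, 1.95 and 1.67 in the treated ones (0.74 ± 0.232, adjusted p = 0.0464). KCNJ8 read 0.351, 0.295 and 0.302 in the vehicle libraries and 1.125, 1.759 and 1.110 in the treated ones (0.81 ± 0.132, adjusted p = 0.00156). CACNA2D1 and KCNJ8 were also genes that H82 controls held at higher levels, and their treated H211 means stayed at 2.64 and 1.33 beside H82 control means of 24.3 and 15.4. The CACNA2D1 call was lost on leaving out any single library other than H82 control replicate 2 or H211 ORY-1001 replicate 3 (up to 0.132).

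**Figure D5:**
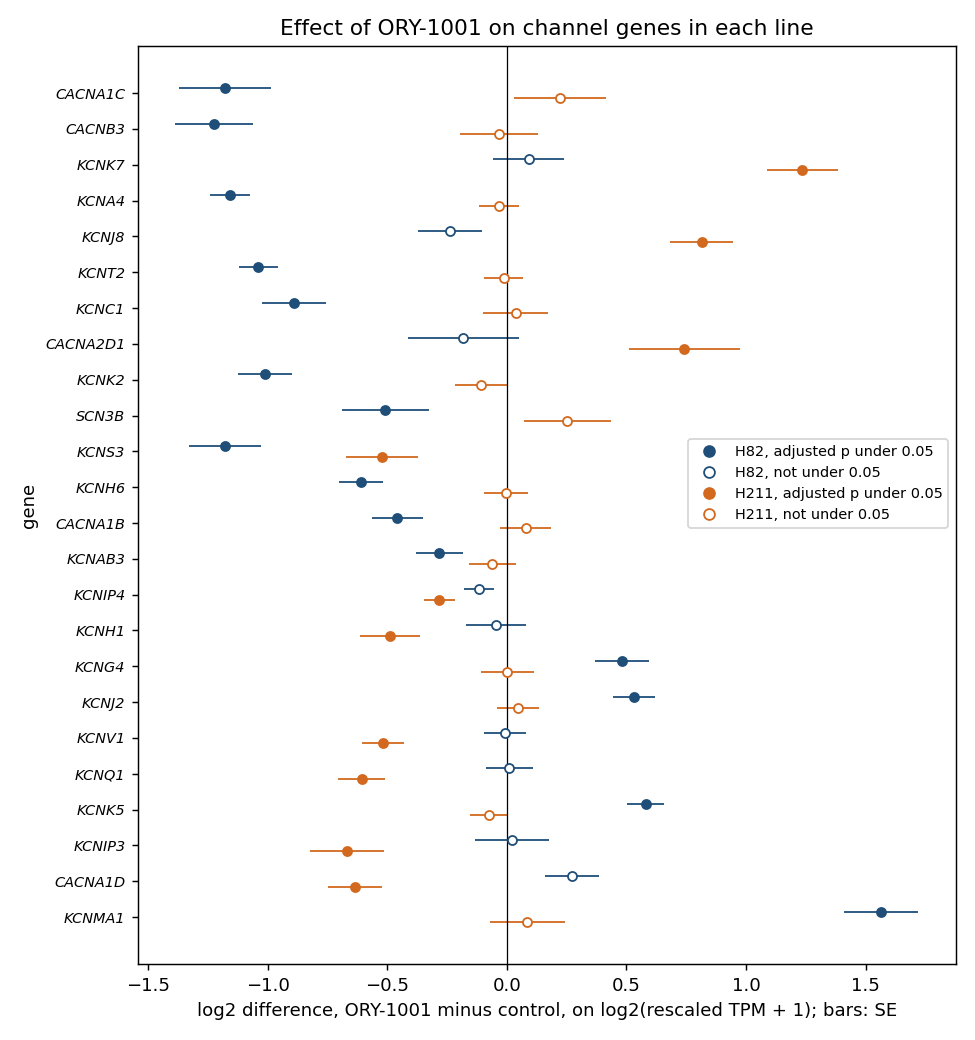
Difference of ORY-1001 minus control (x axis, log2 of rescaled TPM + 1, bars 1 SE) in H82 and in H211 for 24 of the 27 members called in at least 1 line (y axis), filled where the adjusted p is under 0.05. KCNS3 is filled for both lines; KCNMA1 (1.56) has the largest rise shown, in H82.

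Set side by side, KCNS3 (1.96% of the tested members) was called in both lines, 15 members (29.4%) in H82 without a call in H211, 11 (21.6%) in H211 without a call in H82, and 24 (47.1%) in neither. Over all genes tested the shares were 9.59%, 33.4%, 8.95% and 48.1%. A call in a single line does not show that the effects differ, so the difference itself was tested. The H211 effect minus the H82 effect passed the test for 22 of 51 members (43.1%), against 32.1% of all genes tested; 13 were higher in H211 and 9 lower, where 17.8% and 14.3% of all genes were. These were 17 of 38 potassium, 4 of 8 calcium and 1 of 5 sodium genes. Of the 16 members called in H82, 15 differed in effect (not KCNAB3), but 11 of the 16 were under 1 in both H211 groups. The 5 that H211 also expressed at 1 or more all differed in effect. They were CACNA1B, CACNB3, KCNK2, KCNK5 and KCNS3. CACNB3, for example, was at 12.1 ± 1.24 and 11.8 ± 0.527 in H211 (-0.03) against the fall of 1.22 in H82, a difference of 1.19 (adjusted p = 0.00248). KCNK2 was at 6.85 ± 0.250 and 6.34 ± 1.14 in H211, a difference of 0.90 (adjusted p = 0.00139).

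For the members called in H211 the picture was less even. Of 12, 8 differed in effect from H82; CACNA2D1, KCNH1 and KCNIP4 were among those that did not pass. In H82, 7 of the 12 were under 1 in both groups, and of the 5 at 1 or more, KCNJ8 and KCNS3 differed. KCNJ8 rose in H211 and was at 15.4 ± 2.45 and 12.8 ± 1.06 in H82, a difference of 1.05 (adjusted p = 0.00153). KCNS3 fell further in H82, and the difference of 0.66 (adjusted p = 0.0361) was lost (adjusted p up to 0.0799) on leaving out any single library other than H82 control replicate 1, H82 ORY-1001 replicate 3 or H211 ORY-1001 replicate 2.

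Several of the most abundant members were among the 24 not called in either line. KCNH3, a brain-enriched relative of KCNH2, was at 20.2 ± 0.801 and 22.6 ± 1.008 in H211 without and with the drug, and at 4.94 ± 0.551 and 4.36 ± 1.02 in H82. KCNJ11 was at 39.6 ± 2.02 and 44.95 ± 2.95 in H211, and at 3.63 ± 0.504 and 4.11 ± 0.273 in H82. KCNB2 was at 2.96 ± 0.329 and 3.12 ± 0.236 in H82. KCNQ5 was at 9.09 ± 0.720 and 7.26 ± 0.562 in H82 (adjusted p = 0.123), and KCNMB4, a beta subunit of the BK channel, stayed under 0.2 in every H82 library, where the BK pore gene KCNMA1 rose. Uncalled differences ran from -0.41 (KCNK9) to 0.40 (CACNA1F) in H82 and from -0.37 (SCN4A) to 0.40 (KCNAB2) in H211. KCNC4 lay nearest the threshold in H211, at 3.25 ± 0.0584 and 2.44 ± 0.0517 (-0.30, adjusted p = 0.0508). A p that misses the threshold does not show that these levels were unchanged.

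Gene length, which the choice of members did not use, differed among them. Over all 15456 genes tested, the median annotated span was 28.5 kb, and over the 51 tested members it was 93.3 kb (potassium 80.3 kb, sodium 101.6 kb, calcium 324.9 kb). Members that fell in H82 had a median span of 156.5 kb and those that rose 30.8 kb. In H211 the medians were 430.9 kb and 56.1 kb. These are descriptions over 12, 4, 8 and 4 genes, and members not called had medians of 93.3 kb in H82 and 71.8 kb in H211.

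Other ion channels, pumps and exchangers were read beside the members from a list of 96 genes, of which 53 were tested. In H82, 7 rose and 21 fell, beside 19.1% and 23.9% of all genes tested. FGF11, an intracellular fibroblast growth factor homologue that binds sodium channels, rose 3.89-fold and CNGA3, a cyclic nucleotide-gated channel, fell 6.56-fold. SLC8A2 and CLCN4, a sodium-calcium exchanger and a chloride-proton exchanger, fell 3.41- and 2.48-fold. In H211, 3 rose and 8 fell, beside 8.95% and 9.61% of all genes. Among the latter, ATP2B4, a plasma membrane calcium pump, went from 3.965 ± 0.414 to 2.13 ± 0.151 (adjusted p = 0.00188), and TRPA1, an irritant-gated cation channel, from 6.60 ± 0.295 to 3.92 ± 0.4195 (adjusted p = 0.00116). Both calls were lost without the 4 libraries marked for blood transcripts (adjusted p = 0.122 and 0.0736). FGF12, a relative of FGF11, rose 2.52-fold in H211 (adjusted p = 3.06e-07) and fell 1.90-fold in H82 (adjusted p = 3.16e-06), a difference of 2.14 (adjusted p = 1.10e-07). In the controls 16 of the 53 were higher in H211 and 28 higher in H82, beside 39.7% and 40.8% of all genes. TRPM5, the taste and tuft cell channel, stood at 38.5 ± 1.05 in H211 and 0.316 ± 0.238 in H82. SLC8A1, a sodium-calcium exchanger, was 39.4-fold higher in H82 (adjusted p = 2.01e-11).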

How the data were processed

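The file deposited by the authors gives a signal, an abundance per transcript length like TPM, for 56508 gene symbols in 12 columns. Column totals differ, from 967415 to 1111988, so the TPM had been rescaled between libraries. The submitters' processing notes name Trimmomatic 0.36, STAR 2.5.2b, featureCounts, Subread 1.5.2, DESeq2, Salmon 1.1.0, sleuth 0.30.0, R 4.0.4 and the hg38 build. The deposited values are labelled as sleuth TPM. Beyond that label the sources used here do not give the step each tool served. Library depth is unknown, and no counting interval is given.

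The analysis used log2(TPM + 1), which understates changes at low levels, for genes at 1 or more in at least 3 libraries. Group means of all 4 groups were estimated jointly from the 12 libraries (limma 3.58.1, R 4.3.3, eBayes with trend). P-values were two-sided and were adjusted by Benjamini-Hochberg across the 15456 genes kept, with calls under 0.05. Folds are ratios of group means.

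The members, gene lists and naming rule were chosen with earlier results of these data known. Each library's value is given for KCNH2, for the member with the highest mean of each class, and for up to 6 called members each way per comparison whose higher group averaged 2 or more. Genes outside the members come from a list of other channels, pumps and exchangers (up to 3 each way) and from marker lists. Some genes that this rule names are not reported here; counts and sums over the members include them. GENCODE 29 held all 135 members by symbol. Alternatives changed the pseudocount, filter, scaling, variance prior, library weights, libraries fitted and replicate block.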

Additional observations from a re-analysis of the deposited data

Results flagged for a closer look

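For 22 members the H211 effect of ORY-1001 minus the H82 effect passed the test of the difference (limma, Benjamini-Hochberg adjustment over all genes tested), 20 of them given below on the log2(TPM + 1) scale with its adjusted p. In the voltage-gated potassium pore genes the differences were 1.12 for KCNA4 (5.14e-05), 0.93 for KCNC1 (0.00363), 0.66 for KCNS3 (0.0361), 0.61 for KCNH6 (0.00429), -0.48 for KCNG4 (0.0389), -0.51 for KCNV1 (0.00941) and -0.62 for KCNQ1 (0.00620). In the other potassium genes they were 1.02 for KCNT2 (7.15e-05), -1.48 for KCNMA1 (0.000483), 1.05 for KCNJ8 (0.00153), -0.49 for KCNJ2 (0.0120), 1.14 for KCNK7 (0.00183), 0.90 for KCNK2 (0.00139), -0.66 for KCNK5 (0.000910) and -0.69 for KCNIP3 (0.0335). The calcium genes gave 1.40 for CACNA1C (0.00274), 1.19 for CACNB3 (0.00248), 0.54 for CACNA1B (0.0185) and -0.91 for CACNA1D (0.00152), and the sodium genes 0.76 for SCN3B (0.0424). For KCNIP3, KCNG4, KCNS3 and SCN3B the call was lost on leaving out single libraries, with adjusted p up to 0.0744, 0.0896, 0.0799 and 0.0839. In every group each gene had 3 libraries, too few to look for a single outlying one.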

How the results depend on the processing

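Of 25 alternatives for each comparison (24 for the difference between lines), most left the counts within 1.5 times of those reported. With a limit of 5 in at least 3 libraries, where 23 members remained, 7 members were called in H82 (1 higher, 6 lower), 5 were lower in H211, 12 differed in effect (3 lower) and 23 differed between controls (15 higher in H211, 8 lower). With no limit on level, 40 members were lower in H211 controls, of 129 tested. A pseudocount of 0.1 gave 7 calls in H211 (2 lower) and 4 lower differences in effect, and a pseudocount of 5 gave 2 higher in H211. Without the 4 libraries marked for blood transcripts 2 members were called in H211 (1 higher, 1 lower) and 11 differed in effect (8 higher, 3 lower). That setting has fewer samples, and other causes were not tested.

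Leaving out single libraries gave 14 to 16 calls in H82, 9 to 12 in H211, 18 to 24 for the difference and 48 in the controls. The KCNH2 difference in H82 changed sign, to 0.0321 under quantile normalization, and ran from -0.1127 to 0.027 without single libraries; it was near 0 throughout and never called. With the replicate block, 15 members were called in H82, 11 in H211, 21 for the difference and 48 between controls. Same-numbered libraries did not deviate together (r from -0.0805 to 0.0449 across genes), so the numbers were not taken as pairs.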
